A study of Homo sapiens with 4 samples.

Results

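The nuclear-encoded subunits of the mitochondrial respiratory chain and ATP synthase were followed in PC-3M-luc cells after depletion of LSD1. Members were all genes whose symbols begin with NDUF (assembly factors named NDUFAF left out), SDHA to SDHD, UQCR, COX4 to COX8 or ATP5, together with CYC1. Pseudogenes, antisense genes and readthrough genes were left out. The rule found 87 of the 22841 gene symbols in the count tables, of which 37 belong to complex I, 4 to complex II, 10 to complex III, 17 to complex IV and 19 to complex V. The rule used names and no measured value. PC-3M-luc, a human prostate carcinoma line that is metastatic and androgen-independent and carries luciferase, was grown at passages 17 to 20 in minimal essential medium with serum and glutamine. Cells of both groups were transfected with DharmaFECT 2 and harvested at 72 h, with a control RNAi in 1 group and RNAi against LSD1 in the other. There were 2 libraries per group, labelled as biological replicates. All cells were 1 line, and nothing in the labels says how the replicate cultures were kept apart, so the p-values measure the spread between these libraries.

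Respiratory chain complexes sit in the inner mitochondrial membrane. Complex I takes electrons from NADH and complex II from succinate. Both pass them to coenzyme Q, complex III passes them on to cytochrome c, and complex IV passes them to oxygen. Complexes I, III and IV pump protons, and complex V, the ATP synthase, uses the returning protons to make ATP. Most subunits are encoded in the nucleus, while a few of complexes I, III, IV and V are encoded by mitochondrial DNA. The mitochondrially encoded genes were not analysed here, because 0 of them were matched in the tables. LSD1 is the histone demethylase made from KDM1A and uses a flavin cofactor.

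Nuclear respiratory genes are known for promoter sites of the ETS factor GABPA, of NRF1 and of YY1. Promoter windows of 250 bases before to 50 bases after the start, from RefSeq on GRCh38.p14, were matched for 70 of the 87 members. Both strands were searched for CCGGAAG (GABPA and other ETS factors), GCGCATGC (NRF1) and AAGATGGC (YY1), where NRF1 matches on opposite strands may overlap, as in SDHD. At least 1 of the 3 was found in 34 of 70 members (48.6%), beside 27.1% of the 10613 windows of tested genes and 15.6% of all 27305 windows. CCGGAAG was in 20 members (28.6%, against 19.2% of tested genes), GCGCATGC in 13 (18.6%, against 5.67%) and AAGATGGC in 11 (15.7%, against 5.30%). These letters were in 8 of the 16 searched members that rose after LSD1 depletion, in 1 of the 7 that fell and in 25 of the 43 that passed no threshold. The stretches printed here belong to called members with matches, and ATP5MK was the one lower member with any. Each is the stretch upstream of the start, 5′ to 3′ on the gene's strand, with matches on either strand in capitals. The NDUFS1 stretch (chr2:206159555-206159641, minus strand) and the ATP5MK stretch (chr10:103396589-103396678, minus strand) hold the ETS letters. The SDHD stretch (chr11:112086723-112086842, plus strand) and the COX6A1 stretch (chr12:120437863-120438112, plus strand) hold ETS and NRF1 letters.
NDUFS1: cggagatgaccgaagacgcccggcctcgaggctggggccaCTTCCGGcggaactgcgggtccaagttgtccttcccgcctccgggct
ATP5MK: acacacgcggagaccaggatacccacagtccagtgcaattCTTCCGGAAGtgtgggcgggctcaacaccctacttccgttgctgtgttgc
SDHD: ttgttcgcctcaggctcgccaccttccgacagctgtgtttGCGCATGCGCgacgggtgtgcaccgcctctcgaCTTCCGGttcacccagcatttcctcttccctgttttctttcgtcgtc
COX6A1: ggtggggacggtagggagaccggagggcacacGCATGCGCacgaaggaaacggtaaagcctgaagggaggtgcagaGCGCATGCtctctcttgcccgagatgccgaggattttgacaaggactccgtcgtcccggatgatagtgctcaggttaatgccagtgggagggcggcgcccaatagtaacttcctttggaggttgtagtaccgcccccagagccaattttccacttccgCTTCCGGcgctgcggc
A match is a run of letters and does not show that a factor was bound. The genes of the 3 factors did not pass the test, with log2 fold changes of 0.00 for GABPA (edgeR adjusted p = 0.987), -0.14 for NRF1 (0.424) and -0.11 for YY1 (0.328).

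Values are read counts, given as CPM (counts scaled to library size, with TMM factors), and each difference is a log2 fold change of LSD1 knockdown against control from edgeR's quasi-likelihood test. P-values were adjusted over all 13247 genes tested, with a threshold of 0.05. Gene counts per library ran from 12040681 to 12831374, so that 3 counts stood for 0.234 to 0.249 CPM. KDM1A itself had 2920 and 2892 counts with the control RNAi and 218 and 234 with LSD1 RNAi, which left 7.59% of the control level (log2 fold change -3.72, SE 0.10, edgeR adjusted p = 2.32e-24). The epithelial markers KRT8, KRT18, EPCAM, CDH1 and KRT19 were all present, with summed levels of 999 to 1113 CPM, and KRT8, EPCAM and CDH1 were higher after knockdown. KLK2 and KLK3, markers of luminal prostate cells, were at 0. Leukocyte markers summed to 2.62 to 4.35 CPM with PTPRC and CD3E at 0, and fibroblast and endothelial markers to 16.3 to 27.8 CPM. In these lists COL1A2 (log2 fold change 0.61, edgeR adjusted p = 7.3e-04) and LYZ (2.24, 0.0026) were higher after knockdown, and CD79A (-1.01, 0.0099) and PECAM1 (-0.74, 0.0482) lower. No striated muscle marker passed the filter. Whether these markers bear on the members' values was not tested. In bulk RNA, fewer cells of a kind and less RNA per cell cannot be told apart.

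Of the 87 members, 80 passed the filter on low counts. After LSD1 depletion 19 of them rose, 10 fell and 51 did not pass the test. Over all genes tested, 36.1% passed, 18.2% as higher and 17.9% as lower, so the members' 29 calls in 80 lay near the background. The members' median log2 fold change was 0.04, against 0.00 over all genes. For 53 of the 80 members no knockdown value fell within the control values (31 above and 22 below the controls), where 67.2% of all genes tested showed such a gap. Most changes were small. The median size of a called change was 0.36 on the log2 scale among members and 0.48 among all called genes, and 3 members changed at least 2-fold (UQCR10 and COX6A1 upward, SDHC downward). Of all 4788 called genes, 513 did so. The members together took 1.30% and 1.34% of the gene counts in the controls and 1.501% and 1.44% after knockdown.

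**Figure D1:**
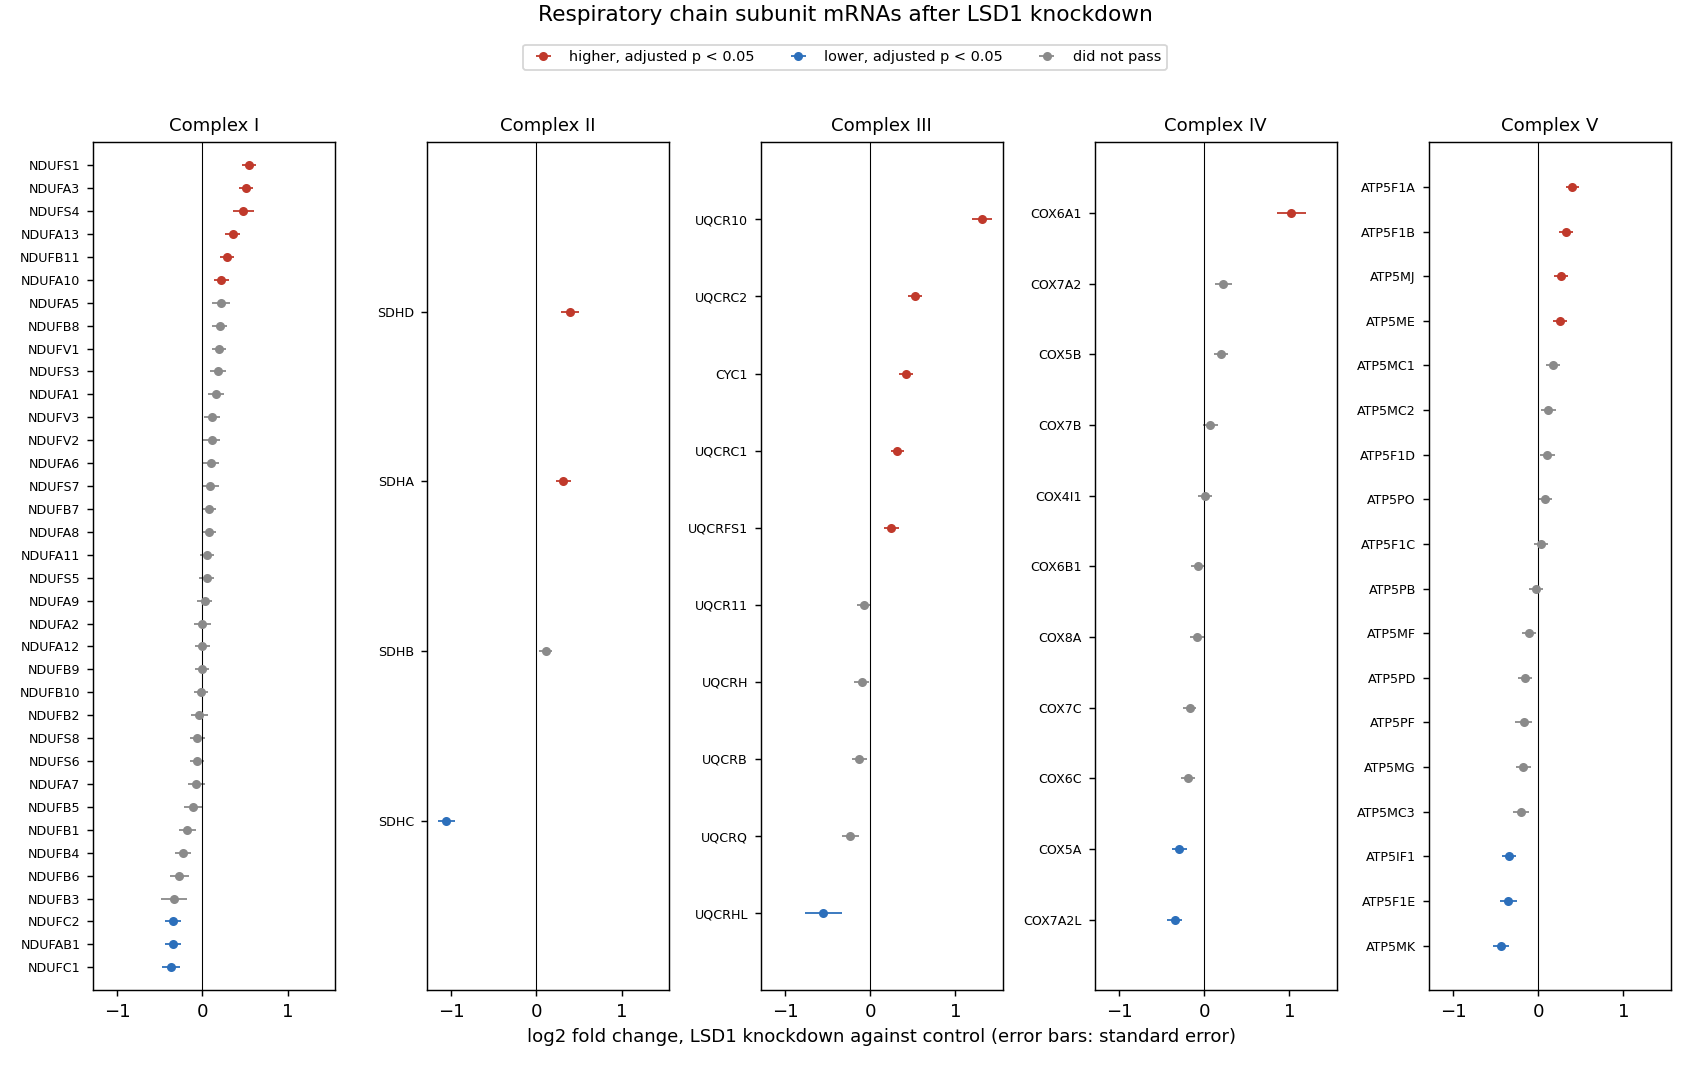
Log2 fold change (LSD1 knockdown against control, edgeR) of 79 of the 80 tested members, by complex; each point is a member, lines are standard errors, and colours mark members that rose, fell or did not pass an adjusted p of 0.05. UQCR10 at 1.31, COX6A1 at 1.02 and SDHC at -1.06 lie farthest from 0, while the other members drawn lie between -0.55 and 0.55.

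Complex I, the NADH dehydrogenase, had 37 tested members, of which 7 rose (18.9%), 3 fell (8.11%) and 27 did not pass. The shares over all genes tested were 18.2% higher and 17.9% lower. Complex I had a median log2 fold change of 0.06. Its nuclear-encoded catalytic core of 7 subunits carries the flavin and the iron-sulfur clusters. Among the 30 supernumerary subunits, which surround the core, 5 rose, 3 fell and the median was 0.01. Whether core and supernumerary subunits differ was not tested.

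NDUFS1, the largest core subunit and a carrier of iron-sulfur clusters, stood at 77.5 and 78.6 CPM in the controls and at 119.6 and 108.6 CPM after knockdown. The groups were clear of each other, with a log2 fold change of 0.55 (SE 0.09, edgeR adjusted p = 6.19e-06). The 5 transcript rows of NDUFS1 gave knockdown to control ratios of 1.49 to 1.51. NDUFS1 shares 1411 exonic bases with an antisense gene on the opposite strand. It also shares 391 with the pseudogene GCSHP3, which had a mean of 57.75 counts against 1195.75 for NDUFS1. NDUFV1, the flavin and NADH-binding core subunit, did not pass (log2 value 0.19, edgeR adjusted p = 0.0748), nor did NDUFS3 (0.18, 0.113).

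Among supernumerary subunits of complex I, NDUFA3 of the membrane arm rose most, from 174.9 and 179.6 CPM to 265.9 and 237.5 CPM (log2 fold change 0.51, SE 0.08, edgeR adjusted p = 1.07e-05). NDUFS4, which stabilises the NADH-oxidising module, went from 18.8 and 15.2 CPM to 22.8 and 24.7 CPM. Its log2 fold change was 0.48 (SE 0.13, edgeR adjusted p = 0.0029). Knockdown libraries lay above both controls for these 2 genes. NDUFA13, also known as GRIM-19, had 172.0 and 206.8 CPM in the controls and 240.1 and 244.4 CPM after knockdown (0.36, SE 0.09, edgeR adjusted p = 0.0014). The groups did not overlap, but the NDUFA13 controls differed from each other by more than the gap to the knockdown libraries. NDUFB11 (0.28, edgeR adjusted p = 0.0070) and NDUFA10 (0.22, edgeR adjusted p = 0.0437) rose by less. NDUFB11 shares 636 exonic bases on the opposite strand with RBM10, whose log2 value was -0.19 (edgeR adjusted p = 0.0755), and since no strand is stated for the counting, reads in the shared bases cannot be told apart.

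The 3 complex I members that fell did so by similar amounts. NDUFC1, a small membrane-arm subunit, had 39.5 and 45.4 CPM in the controls and 34.9 and 30.8 CPM after knockdown, a log2 fold change of -0.37 (SE 0.10, edgeR adjusted p = 0.0055). NDUFAB1, the mitochondrial acyl carrier protein, which also serves lipoic acid and iron-sulfur cluster synthesis, stood at 109.1 and 90.9 CPM in the controls and at 78.8 and 78.4 CPM after knockdown (-0.35, SE 0.09, edgeR adjusted p = 0.0029). NDUFC2 went from 162.4 and 212.3 CPM to 136.6 and 158.5 CPM (-0.34, SE 0.10, edgeR adjusted p = 0.0055). In all 3 genes both knockdown libraries lay below both controls, but in each the controls differed from each other by more than the gap to the knockdown libraries. Reads of NDUFC2 are also counted for the readthrough gene NDUFC2-KCTD14, which shares 431 bases and had a log2 value of -0.37 (edgeR adjusted p = 0.0035). NDUFB3 did not pass (25.2 and 41.7 CPM against 30.5 and 22.6 CPM, edgeR adjusted p = 0.0794), and its controls differed 1.66-fold. The other 21 supernumerary subunits that did not pass had log2 values from -0.27 (NDUFB6) to 0.21 (NDUFA5). Leaving out control 2 ended the calls of NDUFS4, NDUFB11, NDUFC1 and NDUFC2, and leaving out control 1 those of NDUFA13, NDUFA10 and NDUFAB1. Leaving out knockdown 1 ended those of NDUFB11, NDUFA10 and NDUFC2, leaving out knockdown 2 that of NDUFC1, and DESeq2 called neither NDUFC2 nor NDUFA10. NDUFA10 was also lost with no filter and with summed rows.

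**Figure D2:**
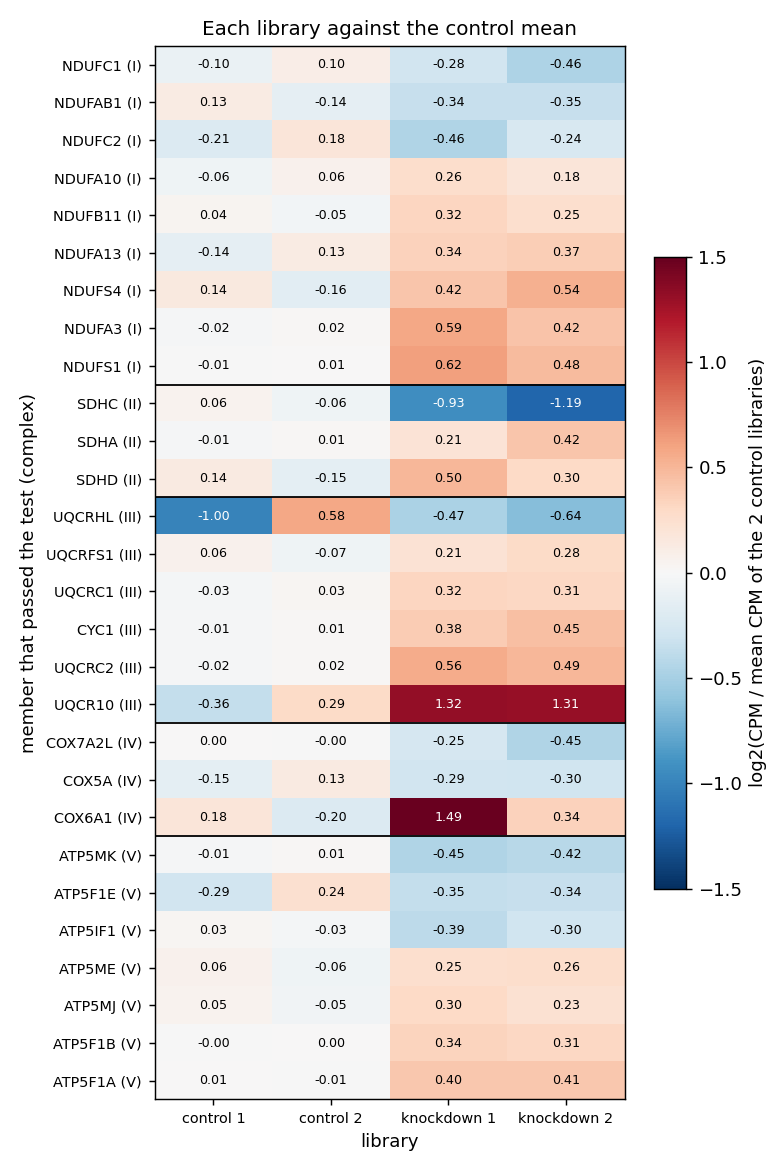
CPM of each of the 4 libraries for 28 of the 29 called members, as log2 of the ratio to the mean of the 2 control libraries, ordered by complex; red is above and blue below that mean. UQCRHL (-0.999 and 0.58 in the controls) and COX6A1 (1.49 and 0.34 in the knockdown libraries) differ widely between libraries of 1 group, and SDHC is low in both knockdown libraries (-0.93 and -1.19).

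Complex II, succinate dehydrogenase, is also an enzyme of the tricarboxylic acid cycle, and all of its 4 subunits are nuclear-encoded. The membrane anchor subunits SDHC and SDHD, which together hold heme and bind ubiquinone, moved in opposite directions. SDHC (NM_003001) had 64.0 and 58.9 CPM in the controls and 32.3 and 26.9 CPM after knockdown. That was a fall of 2.08-fold, the largest fall of any tested member (log2 fold change -1.06, SE 0.10, edgeR adjusted p = 7.31e-10). All 4 SDHC transcript rows gave knockdown to control ratios of 0.483 to 0.494, and the log2 value stayed between -1.20 and -0.93 under the 12 other settings. SDHC shares 774 exonic bases on the opposite strand with CFAP126, a gene with a mean of 11.5 counts against 563.5 for SDHC.

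SDHD stood at 36.5 and 29.9 CPM in the controls and at 46.8 and 40.7 CPM after knockdown, a log2 fold change of 0.40 (SE 0.11, edgeR adjusted p = 0.0036). SDHA, the flavoprotein that oxidises succinate, had 194.9 and 198.8 CPM in the controls and 227.6 and 263.0 CPM after knockdown (0.32, SE 0.08, edgeR adjusted p = 0.0031). SDHB, the iron-sulfur subunit, had 206.8 and 197.2 CPM against 216.7 and 219.1 CPM and did not pass (0.11, edgeR adjusted p = 0.304). The groups overlapped for none of the 4 genes, so SDHC was the one subunit below its controls. Of all genes tested, 67.2% showed such a gap. For SDHD the controls differed from each other by more than the gap to the knockdown libraries. The SDHA pseudogenes SDHAP1, SDHAP2 and SDHAP3, which were counted separately, did not pass the test, with log2 values of -0.19 to 0.09. The call of SDHA was lost without knockdown 2, and that of SDHD without control 2 or without knockdown 1.

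Complex III, the cytochrome bc1 complex, had 10 tested members, of which 5 rose (50%), 1 fell (10%) and 4 did not pass. Of all genes tested, 18.2% were higher and 17.9% lower, but 10 members are few and the difference was not tested. The median log2 fold change of complex III was 0.09, with 5 members above 0 and 5 below. Its summed level was 1327 and 1470 CPM in the controls and 1739 and 1747 CPM after knockdown, a ratio of 1.25. In such a sum the members of high CPM weigh most. The ratios of the other complexes were 1.04 for complex I, 1.09 for complex II, 1.08 for complex IV and 1.08 for complex V. For complex IV knockdown 1 was above the controls and knockdown 2 level with them, with sums of 2414 and 2416 CPM in the controls and of 2795 and 2416 CPM after knockdown, and COX6A1 was the member with the largest difference between the knockdown libraries. Both nuclear-encoded redox subunits rose. CYC1, cytochrome c1, had 372.6 and 380.1 CPM in the controls and 490.7 and 513.9 CPM after knockdown, a log2 fold change of 0.42 (SE 0.08, edgeR adjusted p = 1.2e-04). UQCRFS1, the Rieske iron-sulfur protein, had 97.8 and 89.3 CPM against 108.3 and 113.9 CPM (0.25, SE 0.09, edgeR adjusted p = 0.0223), with the groups apart but closer. The UQCRFS1 call was lost with DESeq2, with summed transcript rows, without control 2 and without knockdown 2.

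UQCRC1 and UQCRC2, the large matrix-side core proteins, rose as well. UQCRC2 went from 155.6 and 159.5 CPM to 232.1 and 221.8 CPM (0.53, SE 0.08, edgeR adjusted p = 3.98e-06), and UQCRC1 from 215.7 and 224.2 CPM to 274.8 and 273.3 CPM (0.32, SE 0.08, edgeR adjusted p = 0.0020). In both genes the libraries of a group were close and the groups did not overlap. UQCR10 (NM_001003684), a small membrane subunit, showed the largest rise of any tested member, from 69.9 and 109.3 CPM in the controls to 223.3 and 221.5 CPM after knockdown. That was 2.48-fold (log2 fold change 1.31, SE 0.11, edgeR adjusted p = 6.63e-11). Its controls differed 1.56-fold, and the log2 value was 1.02 without control 1 and 1.67 without control 2, both past the threshold. Its 2 transcript rows gave ratios of 2.53 and 2.55.

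The other small subunits of complex III moved less. UQCRH, the hinge protein beside cytochrome c1, had 75.8 and 77.1 CPM in the controls and 69.4 and 73.3 CPM after knockdown (-0.10, edgeR adjusted p = 0.399). UQCRHL is a near-identical retrocopy of UQCRH, so its reads are uncertain. It was called lower at -0.55 (SE 0.21, edgeR adjusted p = 0.0428), but its libraries held 40.3 and 120.9 CPM in the controls and 58.1 and 51.9 CPM after knockdown, which overlap. Without control 2 it was called higher (0.45, edgeR adjusted p = 0.0031), and its call was lost under 5 other settings (no filter, DESeq2, limma-voom, replicate block and summed rows). UQCRQ (-0.23), UQCRB (-0.13) and UQCR11 (-0.07) did not pass.

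Complex IV, cytochrome c oxidase, takes its catalytic subunits from mitochondrial DNA, and all members here are supernumerary. Of 17 members 11 were tested, of which 1 rose (9.09%), 2 fell (18.2%) and 8 did not pass, with a median log2 fold change of -0.07. The shares over all genes tested were 18.2% higher and 17.9% lower. COX6A1 (NM_004373), the broadly expressed form of subunit VIa, had 259.7 and 199.2 CPM in the controls and 642.4 and 290.7 CPM after knockdown. Both knockdown libraries lay above the controls, but they differed 2.21-fold from each other. The log2 fold change was 1.02 (SE 0.17, edgeR adjusted p = 1.53e-05). Without knockdown 1 it was 0.34 (edgeR adjusted p = 0.00496), and the DESeq2 adjusted p was 0.197 with all libraries.

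COX7A2L, which takes part in joining complexes III and IV into supercomplexes, fell from 94.8 and 94.7 CPM to 79.9 and 69.2 CPM (-0.35, SE 0.09, edgeR adjusted p = 0.0024). COX5A, a matrix-side subunit, fell from 138.4 and 168.3 CPM to 125.3 and 124.8 CPM (-0.29, SE 0.09, edgeR adjusted p = 0.0091). In both genes the knockdown libraries were below the controls, but the COX5A controls differed from each other by more than the gap to the knockdown libraries. The COX7A2L call was lost without knockdown 2 and the COX5A call without control 2.

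Several complex IV subunits exist as paralogues, 1 broadly expressed and the other limited to muscle, lung or testis. In these cells the broad forms carried the counts. COX4I1 had 390.3 and 368.8 CPM in the controls and 372.3 and 392.3 CPM after knockdown, an overlap with a log2 value of 0.01 (edgeR adjusted p = 0.935), while COX4I2 was at 0 in all 4 libraries. COX6A2 and COX7B2 were also at 0, COX7A1 and COX8C had counts in control 1 alone (6 and 2), and COX6B2 had 4 to 7 counts. None of these 6 passed the filter. Their counterparts did not pass the test either, apart from COX6A1 and COX7A2L, both described above. The others had log2 values of 0.01 for COX4I1, 0.22 for COX7A2, 0.07 for COX7B, -0.07 for COX6B1 and -0.09 for COX8A. COX5B (0.20), COX6C (-0.19) and COX7C (-0.17) did not pass either. COXFA4, formerly NDUFA4 and outside the rule under its present name, had 58.2 ± 1.45 CPM in the controls and 52.9 ± 6.03 CPM after knockdown (SD, n = 2; log2 value -0.14, edgeR adjusted p = 0.272). Its paralogue COXFA4L2 had 22 to 29 counts per library (-0.09, edgeR adjusted p = 0.850).

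**Figure D3:**
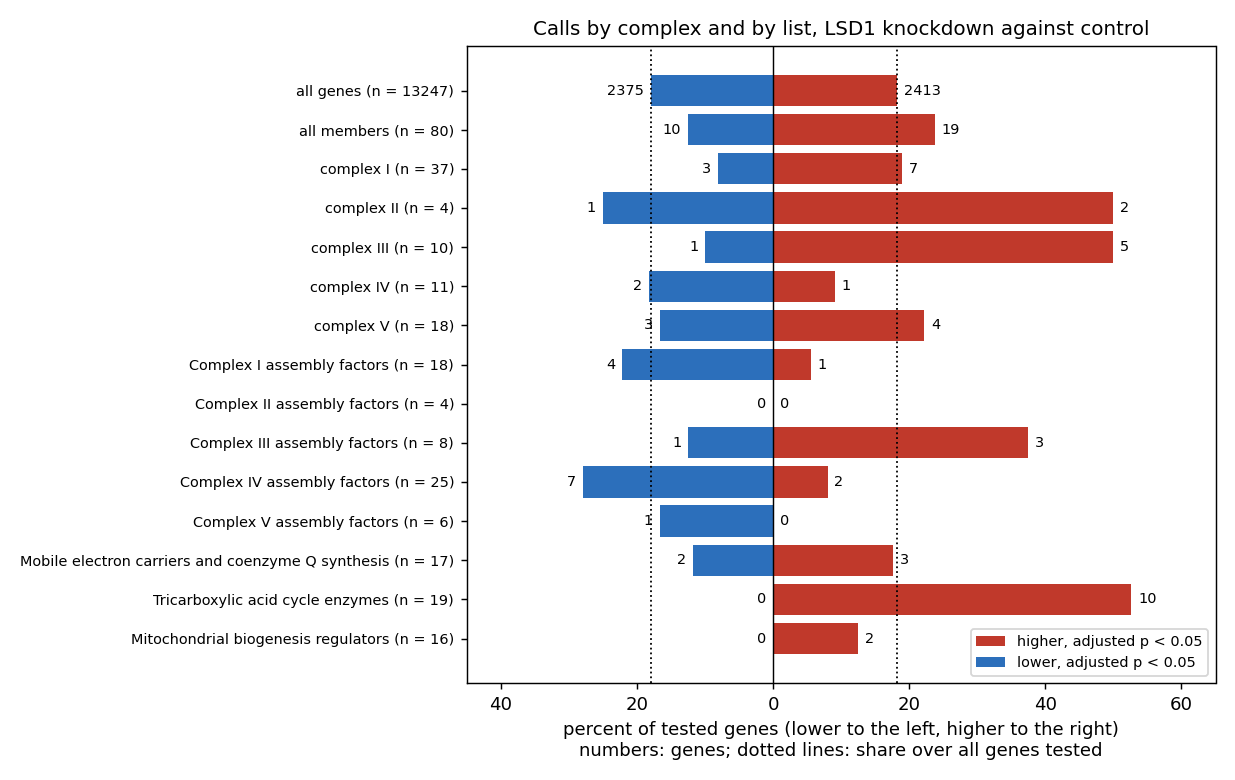
Percent of tested genes called higher or lower (edgeR adjusted p under 0.05) in all genes, all members, each complex and each list of related genes, with the number of genes on each bar and dotted lines at the share over all genes. Complexes II and III show 2 of 4 and 5 of 10 members higher, complex IV 1 of 11 and the tricarboxylic acid cycle list 10 of 19, but these are few genes and the differences between them were not tested.

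Complex V, the ATP synthase, had 18 tested of 19 members, of which 4 rose (22.2%), 3 fell (16.7%) and 11 did not pass, with a median of 0.01. These shares lay near the 18.2% higher and 17.9% lower over all genes tested. The F1 part, made of the catalytic head and the central stalk, showed 2 subunits higher and 1 lower among 5. ATP5F1A, the alpha subunit, had 246.5 and 244.7 CPM in the controls and 324.5 and 325.3 CPM after knockdown, a log2 fold change of 0.40 (SE 0.08, edgeR adjusted p = 1.4e-04). ATP5F1B, the catalytic beta subunit, had 1327 and 1334 CPM against 1683 and 1647 CPM (0.32, SE 0.08, edgeR adjusted p = 0.0026). Replicates of these 2 genes lay close together, and the groups did not overlap. ATP5F1E, the epsilon subunit of the central stalk, had 289.6 and 420.0 CPM in the controls and 278.0 and 279.7 CPM after knockdown (-0.35, SE 0.10, edgeR adjusted p = 0.0085). Control 1 was close to the knockdown libraries: without control 2 the ATP5F1E log2 value was -0.06 (edgeR adjusted p = 0.739), and DESeq2 did not call it. It shares 1188 exonic bases on the opposite strand with TUBB1, which had a mean of 14.2 counts.

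In the F0 membrane part and peripheral stalk, 2 of 12 tested members rose (16.7%), 1 fell (8.33%) and the median was -0.07. Over all genes tested, 18.2% were higher and 17.9% lower, and in 67.2% the groups did not overlap. ATP5MK, formerly USMG5, a small membrane subunit linked to ATP synthase dimers, fell from 49.2 and 50.1 CPM to 36.4 and 37.1 CPM (-0.43, SE 0.10, edgeR adjusted p = 5.1e-04). ATP5MJ, another small membrane subunit, rose from 132.7 and 123.9 CPM to 158.3 and 150.2 CPM (0.27, edgeR adjusted p = 0.0113). ATP5ME, the e subunit, rose from 380.6 and 348.6 CPM to 434.7 and 438.1 CPM (0.26, edgeR adjusted p = 0.0121). None of these 3 overlapped between groups, but the ATP5ME and ATP5MJ calls were lost without control 2, and that of ATP5MJ also without knockdown 1. The central stalk subunits ATP5F1C (0.04) and ATP5F1D (0.11) did not pass. Neither did 6 of the F0 and peripheral stalk members, which lay between -0.17 (ATP5MG) and 0.08 (ATP5PO). ATP5IF1, the inhibitor that blocks ATP hydrolysis by the synthase, fell from 142.8 and 137.6 CPM to 107.1 and 113.5 CPM, with both knockdown libraries below both controls (-0.35, SE 0.08, edgeR adjusted p = 0.0013). The 3 genes for the proton-carrying c subunit did not pass, with log2 values of 0.17 for ATP5MC1, 0.12 for ATP5MC2 and -0.20 for ATP5MC3. For ATP5MC3 the transcript rows disagreed, with knockdown to control ratios from 0.884 to 1.51. ATP5MGL, a paralogue of the g subunit, had 1 or 2 counts per library and did not pass the filter.

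**Figure D4:**
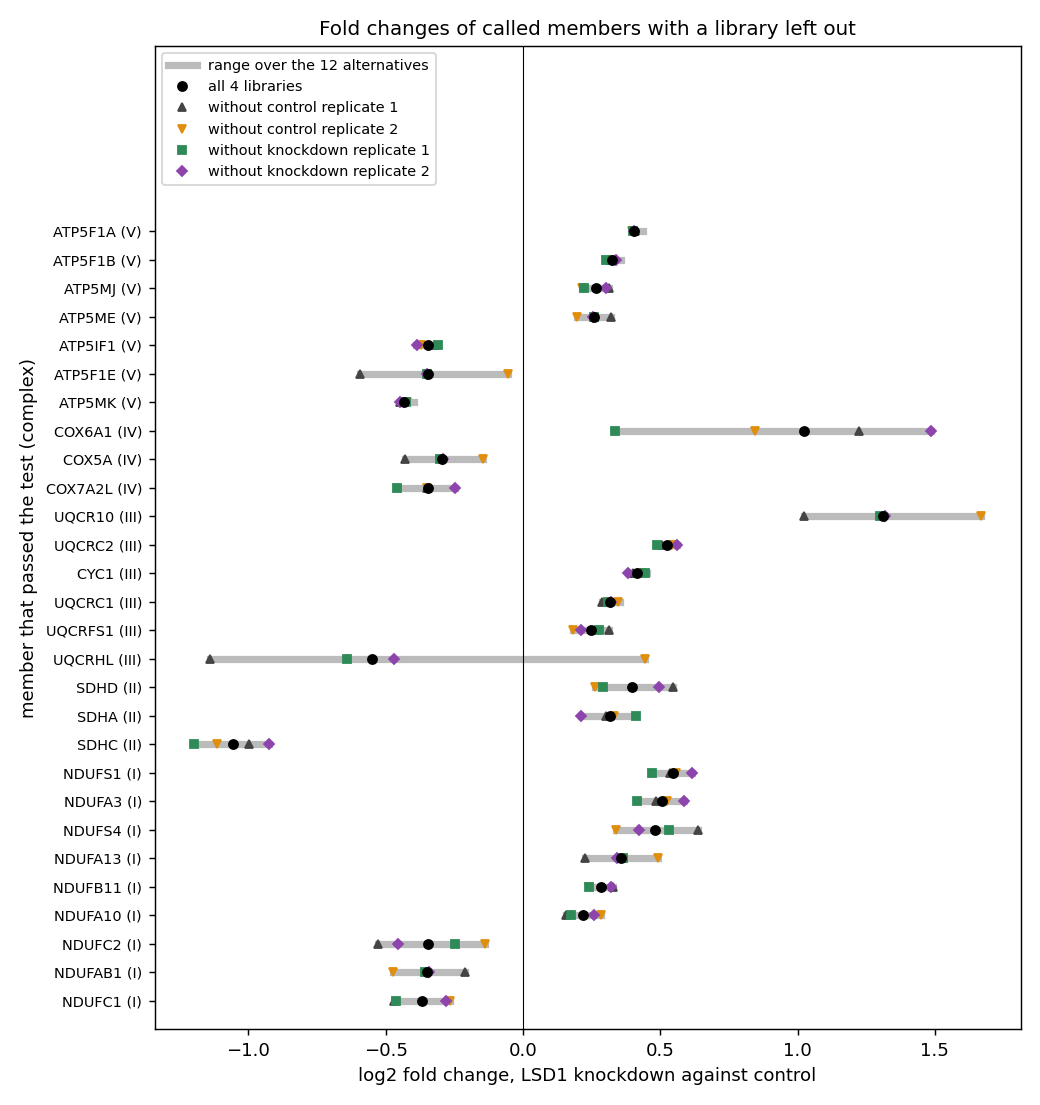
Log2 fold change of 28 of the 29 called members with all 4 libraries and with each library left out in turn, each fit by edgeR. UQCRHL moves from -1.14 without control 1 to 0.45 without control 2, and COX6A1 from 1.49 without knockdown 2 to 0.34 without knockdown 1, while ATP5F1A, CYC1 and SDHC keep their sign and call throughout.

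Of the 19 members that rose, 9 kept their call under all 12 alternative settings, among them ATP5F1A, ATP5F1B, CYC1, NDUFA3, NDUFS1, UQCR10, UQCRC1 and UQCRC2. Of the 10 that fell, SDHC, ATP5IF1 and ATP5MK did. The number of members called depended on which library was left out, and the ranges are given at the end beside those over all genes. The members' median log2 fold change was 0.04 without control 2 and 0.03 without control 1. Without the 4 members whose replicates differed over 1.5-fold (COX6A1, UQCR10, UQCRHL and NDUFB3), a count made after seeing the data, 17 were higher and 9 lower.

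Assembly factors, which build the complexes without staying in them, were read from lists chosen with earlier results of these data known. Among all genes tested 18.2% were higher and 17.9% lower, and differences of the lists from these shares were not tested. For complex I, 1 of 18 rose (5.56%) and 4 fell (22.2%). ECSIT rose by 0.48 (edgeR adjusted p = 6.83e-05), whereas FOXRED1 (-0.57, 2.98e-05), NDUFAF3 (-0.44, 1.55e-04), DMAC1 and ACAD9 fell. For complex II none of 4 passed. For complex III, 3 of 8 tested rose, among them UQCC1 (0.58, edgeR adjusted p = 9.48e-06) and BCS1L (0.29, 0.0145), which inserts the Rieske protein, and UQCC5 fell. For complex V, TMEM70 fell (-0.33, edgeR adjusted p = 0.0139) and the 5 others did not pass. Without control 2 or without knockdown 1, TMEM70 was not called, and the complex III list held 1 or 2 calls.

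For complex IV, 2 of 25 assembly factors rose (8%) and 7 fell (28%), with a median of -0.04. The shares over all genes tested were 18.2% higher and 17.9% lower, 36.1% together. LRPPRC, which stabilises mitochondrial messenger RNA, rose from 327 ± 8.82 to 533 ± 17.1 CPM (SD, n = 2; log2 fold change 0.71, edgeR adjusted p = 2.61e-08). COX10, of heme A synthesis, also rose (0.57, edgeR adjusted p = 1.6e-04). Those that fell included the copper chaperone COX17 (-0.64, edgeR adjusted p = 1.72e-05) and CMC1 (-0.67, 2.72e-05), followed by COA6, COA3, SCO2, CMC2 and TACO1.

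Among 17 genes of the mobile carriers and coenzyme Q synthesis, 3 rose (17.6%) and 2 fell (11.8%). For this and the next lists, 18.2% higher and 17.9% lower are the shares over all genes tested, and differences from them were not tested. COQ8A rose by 0.59 (edgeR adjusted p = 2.6e-06), and CYCS, cytochrome c itself, from 301 ± 30.1 to 398 ± 59.4 CPM (SD, n = 2; log2 fold change 0.40, edgeR adjusted p = 7.3e-04). ETFDH rose as well, and ETFB and COQ5 fell. Of 19 enzymes of the tricarboxylic acid cycle and pyruvate oxidation, which supply NADH and succinate to the chain, 10 rose, none fell and the median was 0.21. Their summed level was 2228 and 2275 CPM in the controls and 2832 and 2828 CPM after knockdown. OGDH (0.56, edgeR adjusted p = 2.87e-06) and MDH2 (0.49, edgeR adjusted p = 1.5e-05) were among those that rose. Between 7 and 11 of these enzymes were called higher under the other settings and none lower. Of 16 tested regulators of mitochondrial biogenesis, PPARGC1B (0.35, edgeR adjusted p = 0.0023) and the mitochondrial helicase TWNK (0.30, 0.0086) rose and none fell. PPARGC1A had 3 to 15 counts per library and did not pass the filter.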

How the data were processed

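Total RNA from 4 PC-3M-luc libraries was sequenced on an Illumina platform, per the labels' protocols. The deposited tables hold raw counts of reads for each RefSeq transcript, as judged from their whole numbers, since they have no header. Per the submitters' processing notes, the build was hg19 and the tools included DESeq 1.8.3, edgeR, HOMER and TopHat2. How strand was handled and reads were counted is not given in the sources used here. The series text speaks of knockouts and the labels of RNAi; samples were treated as knockdowns.

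Each table held 38767 rows. The 1090 rows that matched no symbol, with 1.38% to 1.40% of counts, were left out. The row with the highest mean count stood for each symbol. Counts were filtered with filterByExpr (count of 10, total of 15), scaled by TMM and tested with the quasi-likelihood test of edgeR 4.0.16 (R 4.3.3) on a model holding group alone. The biological coefficient of variation was 5.96%. Floors of 3 counts cover counting error only. Exon overlaps came from GENCODE on GRCh38 and promoters from RefSeq. Not all overlaps are named in the text: COX6A1, SDHD and NDUFA13 are among the called members that also share exonic bases with other annotated genes. The test was checked on counts simulated from the model that it assumes. Such a check does not cover libraries that depart from that model.

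Members and lists were chosen with earlier results of these data known. Named were KDM1A, the 5 largest called rises and falls per complex, all SDH genes, paralogue sets, members whose replicates differed over 1.5-fold, and, from each list, the 3 called genes of lowest adjusted p. Other genes were named after their values were seen. Results of a few genes are left out of the text and plots. Alternatives left out each library, blocked on the replicate number, summed rows, dropped the filter or the normalization factor, filtered at 1 CPM, took DESeq2 size factors, or used DESeq2 1.42.0 or limma-voom (limma 3.58.1).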

Additional observations from a re-analysis of the deposited data

How the results depend on the processing

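The spread behind the p-values is pooled over genes, since a group had 2 libraries, and where 1 library was left out the lone one was assumed to vary like the rest. The samples of the groups share only replicate numbers (correlation of deviations of control 1 and knockdown 1, 0.138 over 10935 genes). With the replicate block, 23 members were higher and 13 lower, and 2629 of all genes higher and 2630 lower. Under it 5 complex I members were lower, 3 complex IV members higher and 4 biogenesis regulators called. DESeq2 called 1564 of all genes higher and 1618 lower, and 16 members higher and 7 lower. It called 0 complex IV members higher, 0 complex III members lower, 1 complex III assembly factor and 0 complex V ones. The complex III fall was also 0 with no filter, limma-voom and summed rows. With no normalization factor 24 members were higher, 3 of them in complex IV, and 4 biogenesis regulators were called. The medians were 0.0775 for members, 0.0910 for complex I and -0.0386 for complex IV. Over all genes, this setting called 2758 higher and 2091 lower, against 2413 and 2375 in the main fit.

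Leaving out each library in turn gave these lowest and highest values. All genes higher ranged from 1772 to 1988 and lower from 1889 to 1998. Members higher ranged from 14 to 20 and lower from 5 to 15, with medians of 0.0160 to 0.0432. Complex I lower ranged from 1 to 6, with medians of 0.0493 to 0.0737. Complex II higher ranged from 1 to 2, with medians of 0.156 to 0.222. Complex III lower ranged from 0 to 2, with medians of 0.0677 to 0.264. Complex IV higher ranged from 1 to 3 and lower from 1 to 2, with medians of -0.0786 to -0.0308. Complex V higher ranged from 2 to 4 and lower from 2 to 5, with medians of -0.0607 to 0.0408. Called assembly factors ranged from 0 to 1 for complex II, 1 to 5 for complex III and 0 to 1 for complex V, and biogenesis regulators from 1 to 3. UQCRHL reversed to 0.45 without control replicate 2 and was -1.14 without control replicate 1. The causes were not tested.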
